A study of Mus musculus with 31 samples.

Results

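The clustered protocadherins are cell surface adhesion proteins encoded by the neighbouring Pcdha, Pcdhb and Pcdhg gene clusters. In Pcdha and Pcdhg, each isoform has its own variable first exon with its own promoter, which is spliced to constant exons shared by the whole cluster. In Pcdhb, each isoform is a separate single-exon gene. Neurons choose among these promoters, so that single cells carry different combinations of isoforms. The zinc finger protein CTCF and the cohesin complex bind at many of the promoters and at distal enhancers, and DNA methylation of the promoters is known to accompany their silencing. The C-type isoforms (Pcdhac1, Pcdhac2, Pcdhgc3, Pcdhgc4 and Pcdhgc5), whose first exons lie nearest to the constant exons, are used more uniformly than the others.

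Members were the protein-coding genes of chromosome 18 in the GENCODE annotation of mm10 whose symbols start with Pcdha, Pcdhb or Pcdhg. This gave 57 of 21938 protein-coding genes, with 14 in Pcdha, 22 in Pcdhb and 21 in Pcdhg. A pair of genes in this annotation carries the symbol Pcdha11, and the one starting at 37005203 is called Pcdha10 here, as in RefSeq. The accessibility data came from 1 ATAC-seq library of the parental NIH-3T3 line, mouse fibroblasts of embryonic origin that carry no TF transgene. In ATAC-seq, Tn5 transposase inserts sequencing adapters where chromatin is accessible. For this library 50000 cells were transposed with 0.5 µM Tn5 and the DNA was amplified by 12 PCR cycles. The labels list no doxycycline for it, whereas the methods of the study describe doxycycline treatment before ATAC-seq without excepting the parental line, so whether these cells were treated is not settled here. The series also holds 30 libraries of cells treated with 500 ng/ml doxycycline for 48 h (13 TFs with 2 replicates each, and 4 replicates with the transactivator rtTA3G alone), which were not analysed here.

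The deposited list held 63456 peaks with a median fold enrichment of 6.04, which is the number of fragments at the summit over the number expected there, with 1 added to each. A member was called open when a peak lay within 1 kb of its transcription start site (TSS), and closed otherwise. Since the number of fragments at a summit could be recovered from the fold enrichment and the p-value, the limit of the list can be given. The background expectation was 2.81 fragments, and the lowest summits listed at that background had 10 fragments. Closed therefore means that no peak was listed at this depth, and weaker accessibility was not detectable. With 1 library there was no replicate error and no test between samples, and all counts are descriptions of this library.

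Promoters of cell type markers were checked first, beside the 49.0% of all protein-coding genes that were open. Of 11 fibroblast markers, 9 were open, among them Fn1 (fibronectin) with a fold enrichment of 10.5 and Col1a2 (a type I collagen chain) with 7.79, whereas Pdgfra and Thy1 were closed. Of 8 neuronal markers, Syn1 was open with 9.19 and the other 7 were closed. None of 4 blood and none of 4 embryonic stem cell markers was open. Krt8 was the 1 open gene of 5 epithelial markers, with 3.25. Of 3 endothelial markers Pecam1 and Tek were open, with 3.75 and 3.58.

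Most protocadherin promoters had no peak. Of the 57 members, 8 were open (14.0%), against 49.0% of all protein-coding genes (10759 of 21938). The open members were Pcdha12 in Pcdha, Pcdhb15 and Pcdhb21 in Pcdhb, and Pcdhga3, Pcdhgb6, Pcdhgb7, Pcdhgc3 and Pcdhgc5 in Pcdhg. Thus 1 of 14 Pcdha members (7.14%), 2 of 22 Pcdhb members (9.09%) and 5 of 21 Pcdhg members (23.8%) were open. Within Pcdhg, the count was 1 of 12 for Pcdhga, 2 of 6 for Pcdhgb and 2 of 3 for Pcdhgc. Among C-type members, 2 of 5 were open, both in Pcdhg, while Pcdhac1, Pcdhac2 and Pcdhgc4 (also in Pcdhg) were closed. The differences between the clusters were not tested.

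**Figure D1:**
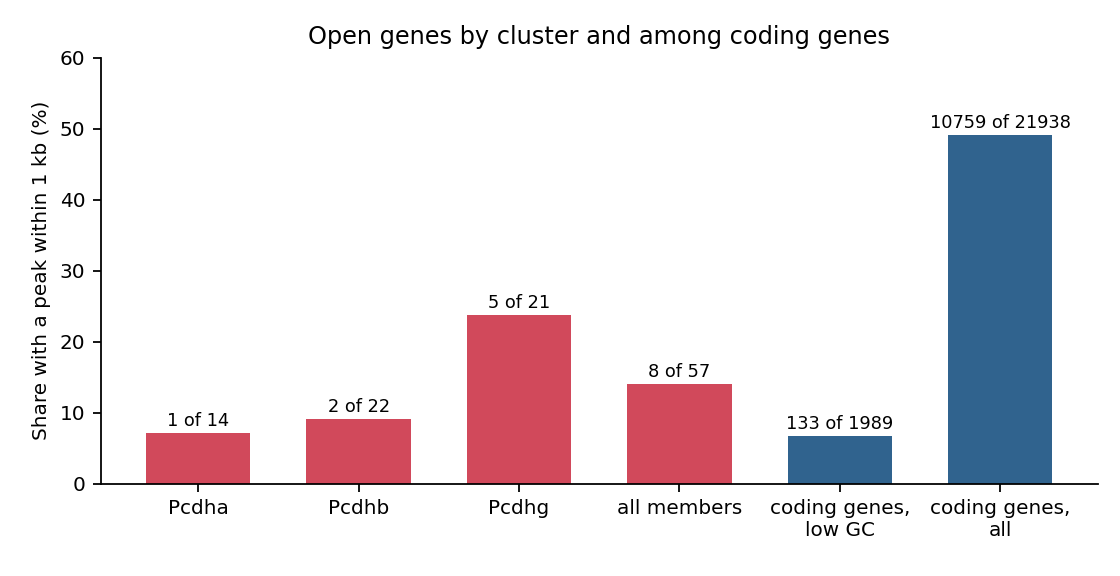
Share of genes with an ATAC-seq peak within 1 kb of the TSS (y axis, percent) in the 3 clusters, in all members and in protein-coding genes of low GC share or in all (x axis), with the number of open genes above each bar. All members stand at 14.0% and all coding genes at 49.0%. Coding genes with a GC share at or below the members' median stand at 6.69%, and the members in that range (2 of 29, not drawn) at 6.90%. These coding genes were not matched to the members on CpG ratio.

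The closed members of Pcdha were Pcdha1 to Pcdha11, Pcdhac1 and Pcdhac2. In Pcdhb they were Pcdhb1 to Pcdhb14, Pcdhb16 to Pcdhb20, and Pcdhb22. In Pcdhg the closed members were Pcdhga1, Pcdhga2, Pcdhga4 to Pcdhga12, Pcdhgb1, Pcdhgb2, Pcdhgb4, Pcdhgb5 and Pcdhgc4. No member lay near the 1 kb limit. Of the open members Pcdhgc5 had the most distant peak, 213 bp from its TSS, and of the 49 closed members Pcdhga12 had the nearest one, at 3690 bp. The median distance from a closed member to the nearest peak was 27194 bp, and the farthest was 123280 bp at Pcdhb7.

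Pcdhgc3 stood apart from the other open members. Its peak (chr18:37805977-37806642, mm10) covered the TSS, was 666 bp wide and reached 69 fragments where 5.94 were expected, a fold enrichment of 10.1 (−log10 q of 45.2). This height was close to the median of 9.88 over all open protein-coding genes, 52.1% of which had a lower fold enrichment. A second, smaller peak (chr18:37806976-37807089) in the first exon of Pcdhgc3 had a fold enrichment of 2.85 with 19 fragments. Both summits also lay in an exon of BC037039, a noncoding gene on the opposite strand.

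The remaining 7 open members had low and narrow peaks. Pcdhgb6 (chr18:37741958-37742073) and Pcdhgb7 (chr18:37751515-37751627) each had 15 fragments at the summit and a fold enrichment of 4.20. Pcdhga3 (chr18:37674240-37674377) had 14 fragments and 3.94. At Pcdhgc5 (chr18:37819128-37819300) 17 fragments stood against a raised expectation of 4.22, which gave 3.45. Pcdha12 (chr18:37020146-37020322), Pcdhb15 (chr18:37473417-37473538) and Pcdhb21 (chr18:37513589-37513839) had identical values, 11 fragments and 3.15 with a −log10 q of 2.31. These 3 summits were thus 1 fragment above the lowest listed at background. The Pcdha12 peak also lay 357 bp from the TSS of the antisense gene Gm10545.

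Over the 8 open members, the median was 14.5 fragments and a fold enrichment of 3.69, against 64 fragments and 9.88 over all open protein-coding genes. Their median peak width was 155.5 bp, against 815 bp. Summits lay before the TSS in 6 of the 8 and after it in Pcdha12 (120 bp) and Pcdhb21 (154 bp). The call of 7 members depended on the threshold. With a fold enrichment of at least 5, Pcdhgc3 alone was open, whereas the share over all protein-coding genes was 44.6%.

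**Figure D2:**
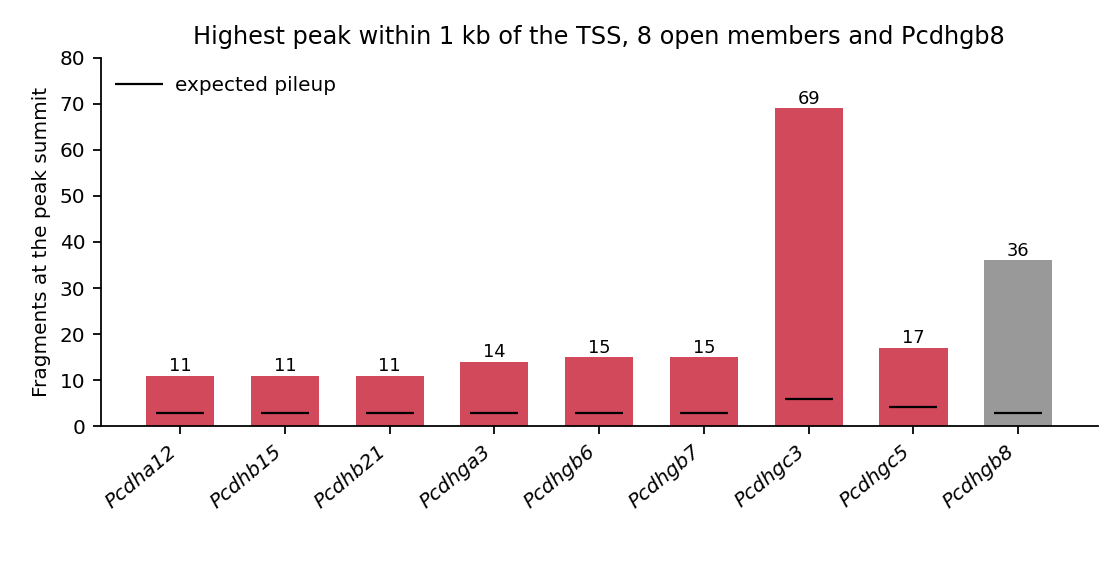
Fragments at the summit (y axis, bars) of the highest peak within 1 kb of the TSS of each of the 8 open members and of Pcdhgb8 (grey, not a member), with the expected number as a black line. Pcdhgc3 reached 69 fragments and Pcdhgb8 36, and the other 7 bars stand between 11 and 17.

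Pcdhgb8, which the annotation lists as a polymorphic pseudogene and which was therefore not a member, had the second highest peak inside the Pcdhg cluster. It spanned chr18:37761301-37761890 (590 bp), covered the annotated TSS and had 36 fragments, for a fold enrichment of 9.72 (−log10 q of 24.9). It was also the peak nearest to the closed member Pcdhga12, at 3690 bp.

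Several long stretches without a peak held member TSSs, and some of them extended beyond the clusters. The longest, 255.0 kb, began upstream of the Pcdhb cluster and contained the TSSs of 14 members from Pcdhb1 to Pcdhb14. A second one of 218.1 kb began upstream of the Pcdha cluster and held 11 members from Pcdha1 to Pcdha11. Another of 158.0 kb held Pcdhac1 and Pcdhac2. In Pcdhg, 10 members from Pcdhgb1 to Pcdhga9 lay in a gap of 67.6 kb. The median gap between neighbouring peaks was 15.7 kb on chromosome 18, on which the longest of these stretches was 49th in length.

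Repeated sequence between paralogous first exons could hide reads that map to several places, so the uniqueness of the promoters was measured. Within 1 kb of the TSS, the share of 75-mers that occur once in the genome had a median of 100% over the members and was lowest at Pcdha7, with 86.6%. It was below 90% for 5 closed Pcdha members (Pcdha6, Pcdha7, Pcdha8, Pcdha10 and Pcdha11). In Pcdhb and Pcdhg the lowest shares were 94.0% (Pcdhb9) and 94.6% (Pcdhgb4).

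The base composition of the promoters differed from that of most coding genes. In the window from 250 bp before to 50 bp after the TSS, the median GC share of the members was 39.7%, against 55.7% over all protein-coding genes and 61.0% over the open ones. The CpG ratio, the number of CpG dinucleotides over that expected from the C and G content, had a median of 0.521 for the members and 0.553 for all genes, which lies between 0.785 for the open and 0.250 for the closed ones. By cluster the median CpG ratio was 0.657 in Pcdha, 0.427 in Pcdhb and 0.540 in Pcdhg.

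The share of open members was also set beside groups of genes split at the members' median CpG ratio or GC share. Of protein-coding genes with a CpG ratio at or above the members' median, 77.3% were open (8867 of 11471), against 3 of 29 members (10.3%). Below that ratio the count was 5 of 28 members (17.9%) and 18.1% of genes. Of genes with a GC share at or below the members' median, 6.69% were open (133 of 1989), close to the 2 of 29 members (6.90%). Above that GC share the count was 6 of 28 members (21.4%) and 53.3% of genes. The members' share was thus near that of the genes in the lower groups and below that of the upper groups, with no test. None of these groups, lower or upper, was matched to the members on both properties. The groups by GC share were not matched on CpG ratio, and those by CpG ratio were not matched on GC. In addition, 19949 of the 21938 genes lay above that GC share.

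Open and closed members did not separate by CpG ratio. The median was 0.444 for the 8 open and 0.540 for the 49 closed members, a ratio of 0.821 that turned to 1.06 in a window of 500 bp on either side of the TSS. Pcdhgc3 had the highest GC share of all members (63.0%) and a CpG ratio of 0.875. The closed C-type members Pcdhac1, Pcdhac2 and Pcdhgc4 had 60.7%, 52.3% and 47.3% GC, with CpG ratios of 0.623, 0.595 and 0.445. Pcdhgc5, the other open C-type member, had 54.7% GC and a CpG ratio of 0.270. Pcdhb22 and Pcdhga12 had no CpG in the window, and both were closed.

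**Figure D3:**
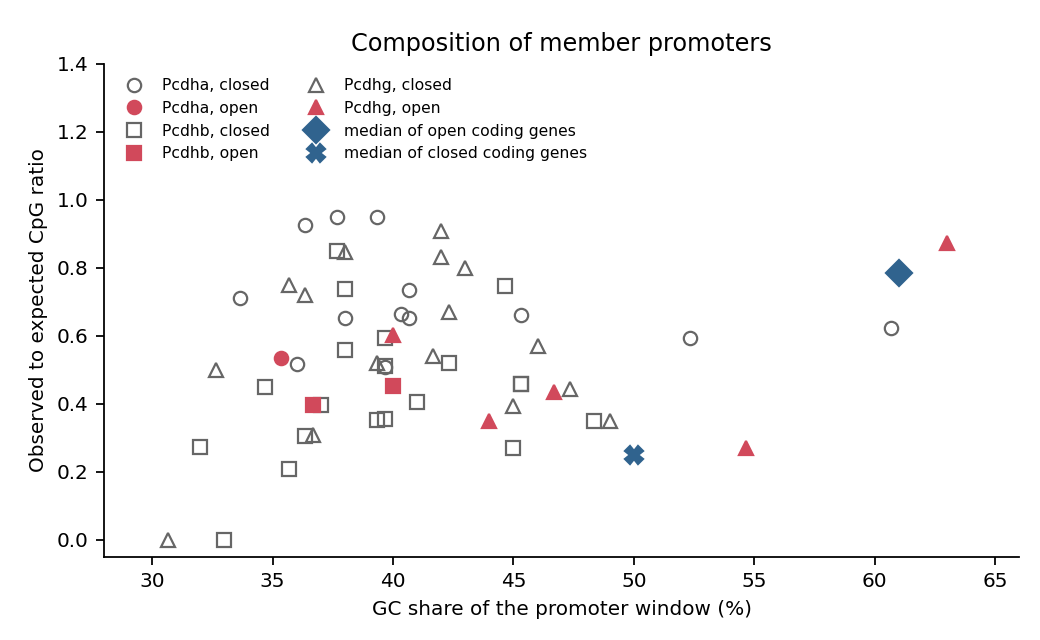
GC share (x axis, percent) and observed to expected CpG ratio (y axis) of the window from 250 bp before to 50 bp after the TSS of each member, by cluster (circles, squares, triangles) and by state (filled red, open; empty, closed). Most members lie to the left of the medians of open and closed coding genes (61.0% and 50.0% GC), and Pcdhgc3 lies at 63.0%.

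Short words shared by the promoters were counted in each cluster. The tetramer CGCT, which is the core of the conserved element known from protocadherin promoters, was present on either strand in 55 of 57 members, against 68.2% of all protein-coding promoters, and the members without it were Pcdhb22 and Pcdhga12. Among words of 8 bases on the gene's strand, GTGGCGCT was found in 17 of 22 Pcdhb promoters, in no other member and in 0.802% of all promoters. It began a median of 56 bp before the TSS and was present in both open Pcdhb members. GCCGCTGT was found in 11 of 21 Pcdhg promoters, against 0.834% of all promoters, and in 3 of the 5 open ones. CGCCGCTG and GCGCCGCT were each in 10 of the 21 and in 2 of the 5 open ones, against 1.59% and 1.26% of all promoters. The overlapping words CCGCTGTT and CGCTGTTC were each in 8 of the 21 and in none of the 5 open ones. Over all promoters their shares were 0.374% and 0.378%. In Pcdha, the word TGTCGCT stood on the gene's strand in 11 of 14 promoters, all but Pcdha10, Pcdhac1 and Pcdhac2, and on that strand in 3 Pcdhg promoters. On the opposite strand it stood in 1 Pcdhb promoter, and on either strand in 2.02% of all promoters. These words were chosen for their frequency in the cluster in which they were counted, so their link to a cluster is no finding, and all of them contain CGCT.

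The core motif of CTCF, searched on both strands, had no match in the promoter windows of the members, and 0.542% of all protein-coding promoters had one. Within 1 kb of the TSS on either side, 6 of 57 members (10.5%) had a match, against 1.67% of all genes. With 1 mismatch allowed in that window, 13 of 57 members (22.8%) had one, beside 20.4% of all genes. By cluster these were 10 of 14 in Pcdha (71.4%), 1 of 22 in Pcdhb (4.55%) and 2 of 21 in Pcdhg (9.52%). All 6 exact matches belonged to Pcdha (Pcdha1, Pcdha4, Pcdha6, Pcdha7, Pcdha8 and Pcdha12), and the match lay on the gene's strand in an exon of the member, 459 to 581 bp after the TSS. Of these, Pcdha12 was the open member. A match is a run of letters and does not show that CTCF was bound. Likewise, a promoter without a match to this 12-letter core may still hold a CTCF site with other letters. The counts therefore do not settle which promoters hold such a site, and the CGCT words above were not compared with this core.

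The region from 200 kb before the first member to 200 kb after the last (chr18:36730184-38041873) held 45 peaks, or 34.3 per Mb, against 20.6 on chromosome 18 and 24.0 over the genome. They were spread unevenly. From the first to the last member there were 17 peaks, or 18.6 per Mb, below both of these densities. The Pcdha and Pcdhb clusters had 7.77 and 7.71 peaks per Mb, with 2 peaks each, and Pcdhg had 44.4 with 8 peaks. The 200 kb downstream of Pcdhg held 22 peaks (110.0 per Mb), and the 200 kb upstream of Pcdha held 6. By their place, 9 peaks lay within 1 kb of a member TSS, 19 within 1 kb of another annotated TSS, and 17 away from any TSS.

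**Figure D4:**
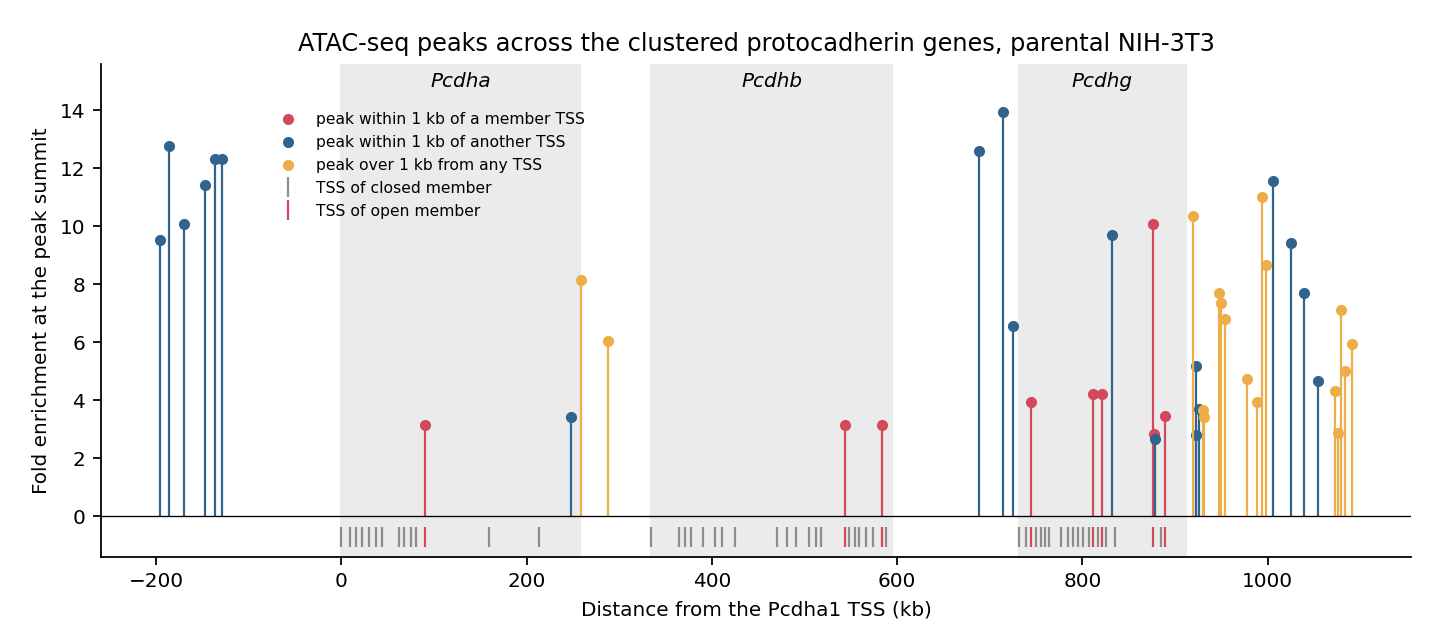
Fold enrichment at the summit (y axis) of the 45 peaks of the region by distance from the Pcdha1 TSS (x axis, kb), coloured by the nearest kind of TSS, with the 3 clusters shaded and member TSSs as ticks below 0. The peaks of the Pcdha and Pcdhb clusters stay below a fold enrichment of 4, while the peak at Taf7 reaches 14.0 and those over 1 kb from any TSS reach 11.0.

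Other coding genes of the region were open in 12 of 18 cases, beside 49.0% of all protein-coding genes and 53.0% of those on chromosome 18 (272 of 513). Outside the clusters, 12 of 15 protein-coding genes had a peak within 1 kb, with fold enrichments from 7.71 at Fchsd1 to 14.0 at Taf7. Upstream, Tmco6, Ndufa2, Ik, Wdr55, Hars2, Hars (a histidyl-tRNA synthetase) and Zmat2 were open. Between Pcdhb and Pcdhg the same held for Taf7, a subunit of the general transcription factor TFIID, and downstream for Diaph1 (a formin), Hdac3 (a histone deacetylase), Rell2 and Fchsd1. Dnd1, Slc25a2 and Arap3 were closed at the TSS used here, and a peak with a fold enrichment of 4.66 (chr18:37984335-37984544) covered another annotated start of Arap3. The 3 other coding genes start inside the Pcdha cluster (Gm42416, Gm37013 and Gm37388), run through all 3 clusters and were closed.

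Of 31 noncoding genes and pseudogenes, 7 had a peak. No share over all such genes of the genome is given here, so this count is a description only. The strongest were 4930517L18Rik, between Pcdhb and Pcdhg, with 12.6, and Vaultrc5, a vault RNA gene upstream of Pcdha, with 12.3. Pcdhgb8 (9.72), 3222401L13Rik (6.57), Gm10544 (3.41), Gm10545 (3.15) and BC037039 (2.85) followed. Gm10544 starts inside the Pcdha cluster on the opposite strand.

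Peaks away from any TSS are candidate distal elements, and none was assigned to a known enhancer because the files used here hold no coordinates of such elements. None of the 17 lay inside a cluster. Between Pcdha and Pcdhb there were 2. The nearer one (chr18:37188926-37189332) started 1.26 kb past the end of the Pcdha cluster and had 30 fragments and a fold enrichment of 8.14. The farther one (chr18:37218153-37218422) started 30.5 kb past it, with 22 fragments and 6.04. Both lay in introns of the 3 long transcripts named above and otherwise between genes. Each was higher than the peak at Pcdha12 and those at both open Pcdhb members.

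The other 15 lay downstream of Pcdhg, 10 of them in introns of Diaph1. The peak nearest to Pcdhg (chr18:37849388-37850253) started 7.51 kb past the cluster's end and had 124 fragments where 11.1 were expected, a fold enrichment of 10.4. The highest fold enrichment, 11.0, was at chr18:37924330-37924583 with 57 fragments, and in the same gene 8.66 was reached at chr18:37927906-37928238. Lower peaks in the same gene were at chr18:37877213-37877804 (7.71), chr18:37880196-37880426 (7.36) and chr18:37883525-37883820 (6.80). Of the 5 peaks between genes, the highest were at chr18:38008942-38009359 (7.11) and chr18:38020704-38020886 (5.93).

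Letters of the AP-1 motif (TGACTCA or TGAGTCA, which are the same site on opposite strands) stood in the 301 bp centred on the summit in 8 of the 17 peaks away from a TSS, against 39.8% of all 47192 such peaks of the genome. The peak 1.26 kb past Pcdha and the one 7.51 kb past Pcdhg were among the 8. The CTCF core motif had a match in 1 of the 17, the Diaph1 peak with a fold enrichment of 6.80, against 4.56% of all such peaks. With 1 mismatch allowed, 2 of the 17 had a match (11.8%), against 14.4% of all such peaks. They were that Diaph1 peak and the one 30.5 kb past Pcdha. The 17 peaks had a median fold enrichment of 6.04, against 5.54 over all peaks away from a TSS.

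Genes of proteins known to act on the clusters or with their products were counted in the same way. Of 21 regulators, 18 were open, beside 49.0% of all protein-coding genes and 77.3% of those with a CpG ratio at or above the members' median. The highest were the cohesin release factor Wapl (16.3) and the cohesin subunits Smc3 (15.0) and Smc1a (14.3), and Ctcf had a fold enrichment of 8.07. Dnmt3a (a de novo DNA methyltransferase), Tet1 (a methylcytosine dioxygenase) and Wiz (a zinc finger protein) were closed at the TSS used here. Of 6 partners of the protocadherin cytoplasmic domain, 4 were open (49.0% of all protein-coding genes), with Fyn at 14.7, Pdcd10 at 12.5 and the focal adhesion kinase Ptk2 at 11.0, and Ptk2b and Ret were closed.

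The non-clustered protocadherins, which are single genes outside these clusters, were open in 4 of 12 cases, beside 49.0% of all protein-coding genes. Pcdh18 had a fold enrichment of 11.7, Pcdh19 9.47, Pcdh7 3.56 and Pcdh1 3.21. Pcdh8, Pcdh9, Pcdh10, Pcdh11x, Pcdh12, Pcdh15, Pcdh17 and Pcdh20 were closed.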

How the data were processed

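ATAC-seq reads of 1 parental NIH-3T3 library were aligned and peaks called by the authors without pooling. The submitters' processing notes name STAR 2.5.3a, MACS2 2.1.1.20160309 and mm10. The deposited peak list gives fold enrichment (a ratio), −log10 of the p-value and of the q-value, and an integer score, which was not used for results. The number of reads is not part of the list. Summit fragments and their expectation were computed by inverting the Poisson p-value given the fold enrichment, a step tested on simulated data, and came out within 0.02 of a whole number for all but 2 peaks. Genes came from GENCODE M21, with the TSS of the protein-coding transcript with the longest coding sequence, and sequence from GRCm38.p6. Python 3.11.15, NumPy 2.4.6, pandas 2.3.3 and SciPy 1.17.1 were used. Every open and closed member, the 10 highest distal peaks, all other open genes of the region and, for 3 gene lists, the 3 highest genes and Ctcf were named, beside 6 lists of cell type markers. The members and lists were chosen with earlier results of these data known. The groups of genes by GC share and CpG ratio and the words of shared sequence were chosen after seeing the data. Alternatives changed the TSS distance, the TSS, the peak threshold, the flank and the sequence windows.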

Additional observations from a re-analysis of the deposited data

How the results depend on the processing

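No paired analysis was possible because the peaks of a single library were used, with no test between samples. The count of 8 open members was the same at TSS distances of 500 bp and 2 kb, at a q of 0.01 and with any annotated transcript start. It was 5 when the peak had to overlap the TSS (1 in Pcdhb, 3 in Pcdhg), 3 at a q of 1e-05 (0 in Pcdha, 0 in Pcdhb, 3 in Pcdhg) and 1 at a fold enrichment of at least 5 (0 in Pcdha, 0 in Pcdhb, 1 in Pcdhg). The thresholds on q and fold enrichment drop the lowest peaks by construction, whereas the overlap rule dropped Pcdhb15, Pcdhgb6 and Pcdhgc5 by position. The count over all protein-coding genes stayed between 9522 and 11788. The region held 17 peaks without flanks and 26 at a fold enrichment of at least 5, of which 11 were away from any TSS. The median fold enrichment at open members was 3.94 where the peak overlapped the TSS. The CpG ratio of open over closed members was 1.06 in the wider window and 0.852 over members at least 90% unique, and the cause was not tested. The CTCF core motif matched in 1 member within 500 bp and in 6 within 1 kb, and, with 1 mismatch allowed (alternatives added after seeing the data), in 0 promoter windows and in 13 members within 1 kb. Summits under 10 fragments were not detectable.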
